A study of Mus musculus with 12 samples.

Results

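H3K27me3, trimethylation of lysine 27 on histone H3, was compared between C2C12 myotubes and C2C12 myoblasts in 2 of the 12 chromatin immunoprecipitation sequencing (ChIP-seq) libraries of the series, chosen by the antibody given in the labels. C2C12 is a mouse cell line of C3H strain that grows as single myoblasts and, once serum is withdrawn, fuses into multinucleated myotubes that contract. The myoblasts were at passages 15 to 18, grown near to confluence in 10% serum, and the myotubes, from the same passages, were taken after about 5 days of differentiation and freed of cells that had not fused by a light trypsin treatment. Each cell type gave 1 library for each of 6 histone marks, with no input library among those used here, so a difference between the cell types and a difference between the libraries cannot be told apart, and no p-value is given.

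H3K27me3 is placed by Polycomb repressive complex 2 and is known for keeping genes of other lineages silent, above all developmental transcription factors whose promoters are rich in CpG, the dinucleotide of C followed by G. It can form a sharp summit at a CpG-rich gene start and also low, broad domains that run over many genes. H3K27ac, acetylation of the same lysine, marks active promoters and enhancers, and a lysine cannot carry both. H3K36me3 is laid down over the bodies of transcribed genes, and H3K4me3 marks the starts of active or poised genes.

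The myoblast library held 7016696 uniquely aligned reads and the myotube library 5016019, which gives a genome mean of 27.4 and 19.6 reads per 10 kb and of 10.98 and 7.84 reads per promoter. A level is given as the fold of reads over that mean, and a promoter is the 2 kb either side of the gene start with the most H3K4me3 reads, for 22342 protein-coding genes. A promoter or 10 kb window counted as marked where the mean of the 2 levels was at least 2-fold. It was called lower or higher in myotubes where the ratio of myotubes to myoblasts, scaled by total reads and with 1 read added to each count, was at most 0.5 or at least 2 and its exact 95% interval lay off 1. The interval covers counting error only. Read counts are given unscaled, while ratios of every mark are scaled by total reads. The H3K27ac libraries differed in depth, with 1857191 reads in myoblasts and 4721345 in myotubes, so an equal level gives more reads in myotubes. The H3K4me3 libraries had 2770947 and 3294370 reads and the H3K36me3 libraries 7026942 and 4309078.

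In the H3K4me3 libraries the cell types matched their labels at genes of known behaviour. All 12 myotube genes checked, among them Myog, Ckm and Actc1, had more promoter H3K4me3 in the myotube library, with a median level of 1.38-fold in myoblasts and 39.9-fold in myotubes. All 7 genes of dividing cells, among them Mki67 and Ccnb1, had less, from a median of 25.8-fold to 8.34-fold. Of the genes of blood, liver and epithelium, 5 of 6 were matched, and their promoter H3K4me3 in myotubes reached at most 2.33-fold. The H3K27me3 libraries themselves are not identified by this check. In them the median promoter ratio was 0.956 for the myotube genes and 1.05 for the genes of dividing cells. The peak list deposited with the H3K27me3 myoblast sample did not match its label: in its 34662 peaks the myoblast H3K27ac library reached 36.4-fold and the H3K27me3 library 0.804-fold, so levels were taken from aligned reads and not from peaks.

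The promoters with the least and the most of the mark in myotubes relative to myoblasts stand at the ends of the comparison, so their sequences are shown with that of Myog, the muscle regulator switched on in differentiation. Each run has the 250 bases before the gene start and the first 50 of the transcript, 5′ to 3′ on the strand of the gene in build mm9, with every CpG in capitals. The Mafa start lies at chr15:75578303-75578602 on the minus strand, Hrk at chr5:118619523-118619822 on the plus strand, Atoh8 at chr6:72185522-72185821 on the minus strand, Cdc42ep1 at chr15:78672827-78673126 on the plus strand and Myog at chr1:136186331-136186630 on the plus strand.
Mafa: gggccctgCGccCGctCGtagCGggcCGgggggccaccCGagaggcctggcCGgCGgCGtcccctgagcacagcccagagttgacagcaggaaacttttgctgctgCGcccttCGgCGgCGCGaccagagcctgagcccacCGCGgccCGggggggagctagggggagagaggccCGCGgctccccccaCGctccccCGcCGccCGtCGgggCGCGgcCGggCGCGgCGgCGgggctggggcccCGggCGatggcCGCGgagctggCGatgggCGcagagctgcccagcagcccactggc
Hrk: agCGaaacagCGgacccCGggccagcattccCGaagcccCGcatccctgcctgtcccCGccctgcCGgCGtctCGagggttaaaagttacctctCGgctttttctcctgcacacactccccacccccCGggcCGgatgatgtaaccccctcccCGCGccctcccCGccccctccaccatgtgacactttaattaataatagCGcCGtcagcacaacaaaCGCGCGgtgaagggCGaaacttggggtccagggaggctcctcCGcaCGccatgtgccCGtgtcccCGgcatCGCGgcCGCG
Atoh8: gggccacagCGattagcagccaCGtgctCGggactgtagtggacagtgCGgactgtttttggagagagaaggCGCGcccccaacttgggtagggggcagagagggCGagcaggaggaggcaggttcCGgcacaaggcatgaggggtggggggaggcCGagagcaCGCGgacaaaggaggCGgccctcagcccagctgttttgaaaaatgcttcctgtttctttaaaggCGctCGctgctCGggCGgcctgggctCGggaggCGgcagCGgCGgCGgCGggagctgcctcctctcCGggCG
Cdc42ep1: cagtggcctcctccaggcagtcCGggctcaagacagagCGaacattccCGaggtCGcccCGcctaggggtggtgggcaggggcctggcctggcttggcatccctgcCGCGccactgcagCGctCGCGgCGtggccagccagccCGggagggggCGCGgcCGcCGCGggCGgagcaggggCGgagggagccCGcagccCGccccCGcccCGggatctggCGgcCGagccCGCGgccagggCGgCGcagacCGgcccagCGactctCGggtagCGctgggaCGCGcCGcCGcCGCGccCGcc
Myog: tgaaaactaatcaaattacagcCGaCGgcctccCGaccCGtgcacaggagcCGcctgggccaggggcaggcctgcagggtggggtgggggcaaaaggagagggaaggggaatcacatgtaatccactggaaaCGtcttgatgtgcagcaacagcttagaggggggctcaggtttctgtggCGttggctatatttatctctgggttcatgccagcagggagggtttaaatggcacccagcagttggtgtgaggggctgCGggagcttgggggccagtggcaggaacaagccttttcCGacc
Mafa and Hrk, the lowest, held 37 and 29 CpG in these 300 bases, and Atoh8 and Cdc42ep1, the highest, held 24 and 40. Myog held 9, more than 40.9% of all promoters. Across groups the median was 22 CpG for promoters called lower, 6.5 for those called higher and 13 over all promoters, so both promoters at the high end were richer in CpG than most of their group.

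H3K27me3 marked 3547 of the 22342 promoters, 15.9%, and most marked promoters had less of it in the myotube library. The level reached 2-fold at 3863 promoters in myoblasts and at 3428 in myotubes, with 2879 in common. Among the marked promoters, 385 were lower in myotubes, 10.9% of those tested, and 38 were higher, 1.07%. The median ratio was 0.831 (quartiles 0.639 to 1.06), beside 0.933 over all promoters, and 2478 marked promoters had a ratio under 1. The 99th percentile of marked promoters was 9.84-fold in myoblasts and 6.50-fold in myotubes, where it need not be set by the same promoters. Promoters just above the marked level had a median ratio of 0.933 and those just below it one of 0.840, for 200 on each side.

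**Figure D1:**
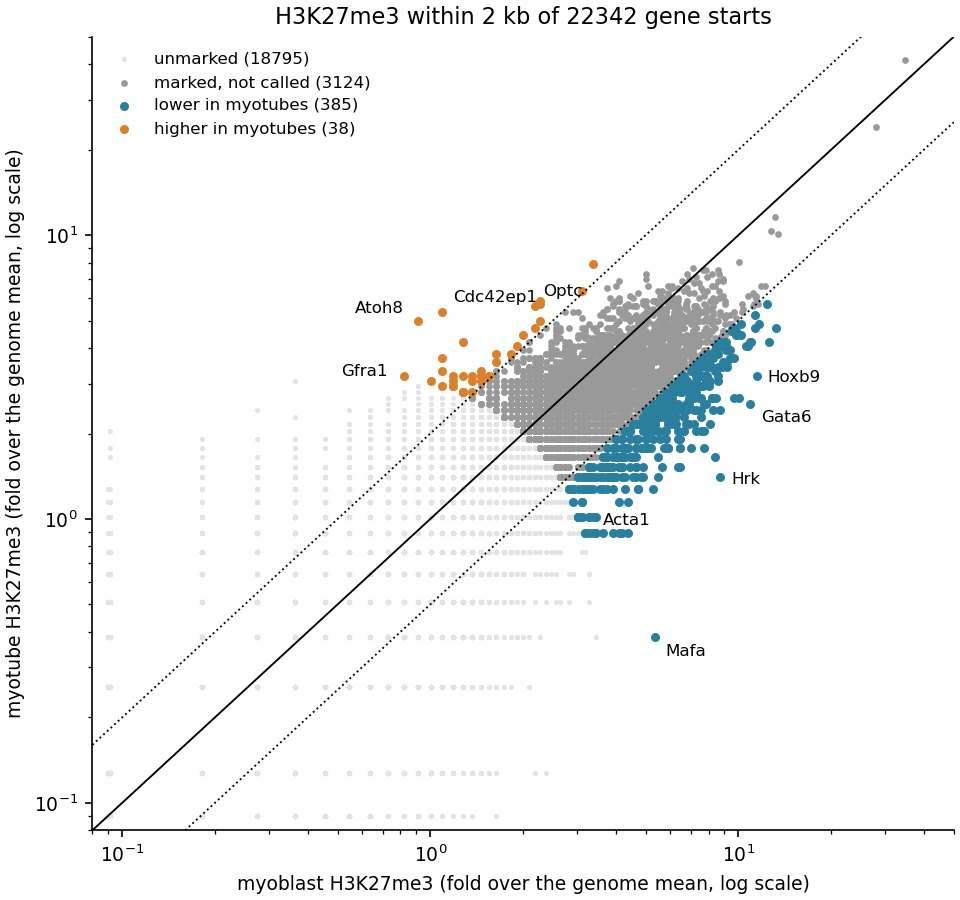
Each point is a promoter, with its H3K27me3 level in myoblasts on the x axis and in myotubes on the y axis, both as the fold over the genome mean on log scales; promoters with no read are drawn at the lower edge, the solid line is equality and the dotted lines are 2-fold. The 385 promoters lower in myotubes lie under the lower line and reach over 10-fold in myoblasts, and the 38 that were higher lie at lower levels.

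A promoter called lower seldom lost the mark entirely. Of the 385, 221 still had at least a 2-fold level in myotubes and 11 fell below the genome mean. Their median level, which the call itself selects, was 5.56-fold in myoblasts and 2.17-fold in myotubes, while the flanks were not used for the call. The regions 5 to 20 kb away on both sides held nearly the same level in both cell types, 2.41-fold and 2.31-fold, with a median ratio of 0.922 (quartiles 0.806 to 1.07). In the mean profile the myoblast library peaked at 6.70-fold, 750 bases downstream of the start, where the myotube library had a dip: within 500 bases of the start the level was 5.61-fold in myoblasts and 1.60-fold in myotubes. Of the 385, 305 lay inside a broad domain, 79.2% beside 73.7% of all marked promoters. The domains that held them had a median ratio of 0.829, beside 0.938 for the domains that held any marked promoter. None of the 277 domains was itself called, beside 7 of the 1707 with any marked promoter. The start lies inside the window that made the call and the flanks do not, so part of this contrast is set by the selection. Marked promoters that were not called had 3.79-fold in myoblasts and 2.80-fold in myotubes within 500 bases of the start, and 2.19-fold and 2.17-fold at the outer ends of the profile.

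**Figure D2:**
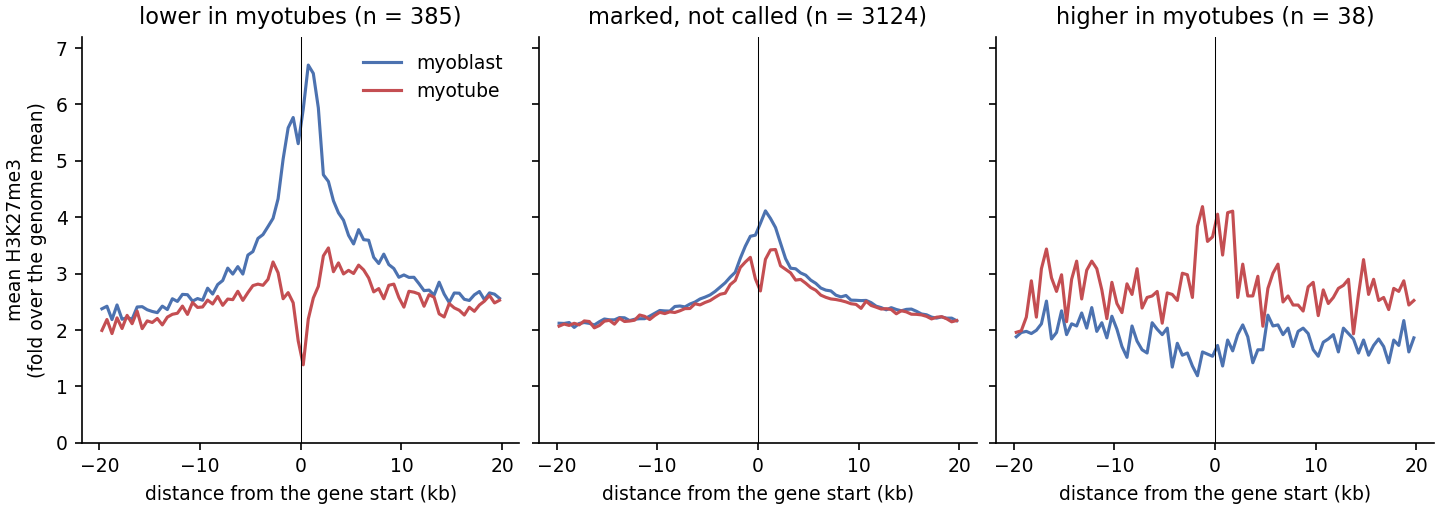
Mean H3K27me3 level, as the fold over the genome mean in bins of 500 bases, against the distance from the gene start in the direction of transcription, for promoters called lower, marked but not called, and called higher; each line is 1 library. In the lower group the myoblast summit of 6.70-fold faces a dip in myotubes, and the lines meet towards 20 kb, while in the higher group the myotube line lies above over most of the span.

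The change followed CpG content. CpG-rich promoters, with an observed over expected CpG ratio of at least 0.6 in the 1 kb around the start, made up 1208 of the marked promoters. Of these, 279 were lower (23.1%) and 8 were higher, with a median ratio of 0.667. Of the 2339 CpG-poor marked promoters, 106 were lower (4.53%) and 30 were higher, with a median of 0.915. The difference held at each level of the mark: at a mean level of 4- to 6-fold the median ratio was 0.594 for CpG-rich and 0.821 for CpG-poor promoters, and at 2- to 3-fold it was 0.794 and 0.985. H3K4me3 at 5-fold or more, as the mean of both cell types, was present at 293 marked promoters. Both marks were averaged in this way, so they need not stand together in the same cells, as they do in the bivalent state of poised genes. Acta1 is among the 293, with H3K4me3 at 1.38-fold in myoblasts and 63.8-fold in myotubes. CpG-rich promoters were lower in 21.9% of cases with H3K4me3 and in 23.3% without it. CpG-poor promoters were lower in 19.3% of 83 cases with it and in 3.99% of 2256 without it.

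Base composition moved with the ratio, and its part in the result was not tested. From the lowest to the highest of 6 bins of GC content, the median ratio of marked promoters went from 0.933 to 0.606 and the share called lower from 2.55% to 32.4%. Unmarked promoters moved less, from 1.02 to 0.900, and unmarked 10 kb windows went the other way, from 0.875 to 1.15. Within 500 bases of CpG-rich starts that were not marked, H3K27me3 reads were also fewer in myotubes, 0.712-fold against 0.480-fold, a pooled ratio of 0.674. At the same 9376 starts the ratio of H3K36me3, a mark of transcribed genes that is known to hinder Polycomb repressive complex 2, was 0.940. At the CpG-rich marked starts the pooled ratio was 0.447 for H3K27me3 and 1.31 for H3K36me3. When each ratio was divided by the median of its own class of CpG content, an alternative chosen after the data were seen, 108 promoters were lower and 114 higher. That centring sets the median ratio at 1 and so brings the counts of lower and higher promoters close to each other by construction.

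**Figure D3:**
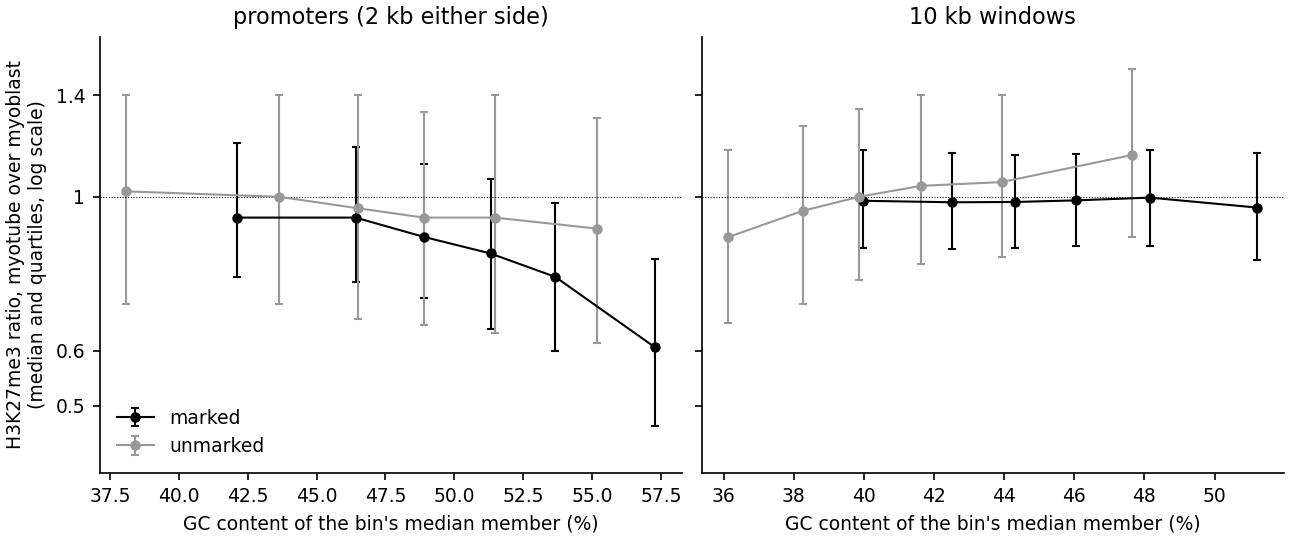
Median ratio of H3K27me3 in myotubes over myoblasts, with quartiles as bars on a log scale, for 6 bins of GC content, in marked (black) and unmarked (grey) promoters and 10 kb windows. The ratio of marked promoters falls to 0.606 in the bin richest in GC, while that of marked windows stays between 0.964 and 0.997.

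The lowest promoter was that of Mafa, a transcription factor known from insulin-producing cells, with 59 reads in myoblasts and 3 in myotubes, a ratio of 0.0933 (0.0143 to 0.218). Hrk, a pro-apoptotic member of the Bcl2 family, had 96 and 11 reads, a ratio of 0.173, and Igf2bp1, an RNA-binding protein of growing cells, had 92 and 13 reads, a ratio of 0.211. Others of the 12 lowest were Adck3, Casz1, Gata6, Trim71, Tesc, C1ql2, Acan and Pou4f1, at 0.228 to 0.261. They divided by acetylation. At Adck3, a mitochondrial kinase of coenzyme Q synthesis, H3K27ac went from 5 reads to 306, a scaled ratio of 20.1. At Casz1, a zinc finger factor of heart and muscle, it went from 3 to 74, a scaled ratio of 7.38. Mafa also had more H3K27ac, with a ratio of 4.92. At Hrk, Igf2bp1 and Gata6 it stayed at 8 reads or fewer in both libraries.

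Of 50 promoters of sarcomere genes, which encode the contractile apparatus, 13 were marked, 26% beside 15.9% of all promoters. Of the marked, 5 were lower, 38.5% beside 10.9% of all marked promoters, and none was higher, with a median ratio of 0.700. Acta1, skeletal alpha-actin, had 45 reads in myoblasts and 9 in myotubes, a ratio of 0.304 (0.120 to 0.580). H3K27ac there went from 8 to 764 reads, a scaled ratio of 33.4. The flanks of Acta1 were near the genome mean in both libraries, at 0.693-fold and 1.12-fold. Mybpc1, Myh3 and Myh7, a myosin-binding protein and the embryonic and slow myosin heavy chains, had ratios of 0.350, 0.391 and 0.395. The adult fast myosin Myh4, with 30 and 23 reads, and the perinatal Myh8, with 18 and 20, had ratios of 1.08 and 1.55 and were not called. None of the 20 promoters of synapse, fusion and membrane genes and 2 of the 22 of calcium release and energy genes were marked, and none of these was called.

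None of the 8 myogenic factor promoters was marked by the mean of both libraries, and 1 reached 2-fold in a single library. Myog had 11 and 8 reads, a level of 1.002-fold and 1.02-fold, while its H3K27ac went from 24 to 429 reads, a scaled ratio of 6.77. Mef2c, a partner of the myogenic factors, passed 2-fold in myoblasts alone, with 27 reads in myoblasts (2.46-fold) and 8 in myotubes (1.02-fold). Its ratio was 0.450 (0.163 to 0.938), and H3K27ac had 1 and 102 reads, a scaled ratio of 20.3. Myod1 had 8 and 1 reads, Myf5 10 and 3, Myf6 14 and 3, Mef2a 10 and 4, Mef2b 21 and 14 and Mef2d 10 and 9. At these depths their intervals all held 1, so no difference was detectable. Igf2, the insulin-like growth factor that muscle cells release in differentiation, had 16 and 17 reads, a ratio of 1.48 (0.706 to 3.14). The start used for Igf2 had little active mark in either library, with 1 and 5 H3K4me3 reads and 2 and 6 H3K27ac reads.

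No CDK inhibitor or retinoblastoma family promoter was marked. Cdkn1a and Cdkn1c, inhibitors that hold cells out of the cycle, had 18 and 5 and 21 and 5 reads, ratios of 0.442 (0.113 to 1.09) and 0.382 (0.0982 to 0.908). Cdkn1b had 7 and 3 reads, Cdkn2c 9 and 2, Rb1 4 and 2, Rbl1 6 and 6, Rbl2 10 and 5, and Cdkn2d 0 and 1. Cdkn2a and Cdkn2b, the Ink4 inhibitors that Polycomb is known to silence, had 0 reads in both libraries, which allows a level of up to 0.273-fold and 0.382-fold. All 12 libraries together held 26 reads over the surrounding chr4:88910001-89150000, where 4295 would stand at the genome mean, so no mark can be read there. Of the 29 promoters of Polycomb complex genes and H3K27 demethylases none was marked, and of the 29 of cell cycle genes 1 was.

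Genes of other lineages held most of the marked promoters among the lists. The share of marked members called lower is given for each list. It stands beside 10.9% of all marked promoters and 23.1% of the CpG-rich ones. Of 40 Hox promoters, the regulators of body position, 20 were marked, 9 were lower (45%) and none was higher, with a median ratio of 0.572. The marked ones were the Hoxb and Hoxd genes and Hoxa13. Hoxb9 had 126 and 25 reads, a ratio of 0.286 (0.173 to 0.429), and still stood at 3.19-fold in myotubes. Hoxd9, Hoxb1 and Hoxd4 had ratios of 0.338, 0.367 and 0.402, and Hoxb13 and Hoxd1 of 0.470 and 0.493. Here the flanks were lower too, from 8.61-fold to 5.70-fold beside Hoxb9 and from 6.95-fold to 4.64-fold beside Hoxd9, with H3K27ac at 8 reads or fewer.

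Of 112 other developmental transcription factors, 73 were marked and 28 lower (38.4%), with a median ratio of 0.554. Of 37 neural fate genes 26 were marked and 12 lower (46.2%), with a median ratio of 0.518. No member of either list was higher. The eye and forebrain factors Six3 and Six6 had 82 and 28 and 88 and 30 reads, and Pax5 and Pax2, of B cells and of kidney, had ratios of 0.384 and 0.484. Pax7, the factor of muscle stem cells, had 51 and 11 reads, a ratio of 0.323 (0.142 to 0.586), with less H3K4me3 as well (0.330). Pax7 was also in the list of Id, Notch and satellite cell genes, where 8 of 28 promoters were marked and 2 lower (25%). The other was Hes5, a Notch target, with 90 and 27 reads. The neural factors Sox21, Pou3f1 and Sox2 had ratios of 0.328, 0.327 and 0.475, and Sox2 kept 2.29-fold in myotubes. Among mesenchymal genes, which direct cartilage, bone and fat, 4 of 14 marked were lower (28.6%), namely Acan, Cebpa, Col2a1 and Twist1. The first 3 had ratios of 0.256 to 0.390, and Twist1, with 55 and 19 reads, was at the limit.

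Of 60 promoters of Wnt, Fgf, Bmp and hedgehog ligands, the secreted signals of embryonic patterning, 36 were marked and 10 lower (27.8%), with a median ratio of 0.617. Wnt10a had 48 and 9 reads, a ratio of 0.286, and more H3K27ac in myotubes, 12 and 98 reads, a scaled ratio of 3.00. Wnt7b had 96 and 19 reads with H3K27ac at 3 and 5, a scaled ratio of 0.590. Their antagonists Wif1 and Frzb, 2 of 6 marked (33.3%), were lower at 0.474 and 0.476. Among imprinted and Igf genes 2 of 11 marked were lower (18.2%), Rasgrf1 and Ascl2. Among blood genes 1 of 9 marked was lower, Tal1 (0.466), and among liver and epithelial genes 1 of 11, Esrp1 (0.277). The shares of these last lists, 11.1% and 9.09%, were near the 10.9% of all marked promoters. Collagen and matrix genes were apart in direction, with a median ratio of 1.12 over 6 marked promoters and none called. Col4a1 had 20 and 28 reads and Col4a2 20 and 29, counted over nearly the same bases, with ratios just short of the limit for a call.

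The 38 promoters with more H3K27me3 in myotubes were mostly CpG-poor, with 8 CpG-rich, 21.1% beside 34.1% of all marked promoters. On chromosome X lay 10 of them, 26.3% beside 5.86% of all marked promoters. Unmarked windows on X were also higher in myotubes, with a median ratio of 1.19. The median level of the 38 went from 1.37-fold to 3.19-fold, and 24 of them were under 1.5-fold in myoblasts. The call itself selects on these levels. Atoh8, a basic helix-loop-helix factor, had 10 and 39 reads, a ratio of 5.09 (2.68 to 12.3), and its H3K4me3 had a ratio of 0.192. Cdc42ep1, an effector of the Cdc42 GTPase that shapes the cytoskeleton, had 12 and 42 reads, a ratio of 4.63 (2.53 to 10.2), with H3K27ac of 161 and 88 reads, a ratio of 0.216. Gfra1, a receptor for glial cell line-derived neurotrophic factor, had 9 and 25 reads, a ratio of 3.64. At Syt13, a synaptotagmin, with 11 and 24 reads, H3K27ac went from 89 to 8 reads and H3K36me3 over the gene had a ratio of 0.176. The others of the 12 highest were Krt79, Ddx26b, Gm5142, Cd101, 1700018C11Rik, Cyp2d40, Optc and Nlgn3, at 2.50 to 3.23. Ddx26b and Nlgn3 are on chromosome X. Krt79, Cyp2d40 and Gm5142 had at most 14 H3K27ac reads in the 2 libraries together, so they had little of that mark in either cell type.

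The other marks differed between the called groups. H3K27ac was at least 2-fold higher at 57 of the 385 lower promoters, 14.8%, beside 8.74% of all marked promoters and 5.40% of all promoters. It was at least 2-fold lower at 23 of the 38 higher ones, 60.5%, beside 30.2% of all marked promoters and 40.0% of all promoters. At 104 of the lower promoters, 27.01% beside the same 30.2%, H3K27ac was at least 2-fold lower, and the median H3K27ac ratio of the lower promoters was 0.787, the same as over all marked promoters. With 1 read added at these depths, a promoter without any H3K27ac read has a ratio of 0.393 and counts as at least 2-fold lower. Emx1 is such a case, so the shares with less H3K27ac and the shared median are read with that limit. The 57 had a median H3K36me3 ratio of 2.61 over the gene and of 2.21 for H3K4me3, and 31 of them were CpG-rich. The other 328 held few H3K27ac reads, with a median of 8 in both libraries together, and their ratios are read with that limit. The 23 held a median of 28. The median H3K4me3 ratio was 1.05 at lower promoters and 0.631 at higher ones, beside 0.864 over all marked. H3K4me1 and H3K4me2 had medians of 0.688 and 0.519 at lower and 0.844 and 0.638 at higher promoters, beside 0.738 and 0.632.

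The highest H3K27me3 levels of all are uncertain. Gm10800, Gm10801, Sfi1 and Gm10717 had 10.3- to 41.3-fold in myotubes, and every other mark was high there too, with H3K4me3 of 26.3- to 76.8-fold in myoblasts. Apart from those, Krt78 had 148 and 79 reads and Nr2e1, an orphan nuclear receptor of the nervous system, 145 and 37, a ratio of 0.364.

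The broad domains were nearly the same in both cell types. Of 255585 windows of 10 kb, 27155 were marked, and these held 32.4% of the myoblast reads (exact interval 32.36 to 32.43%) and 31.3% of the myotube reads (31.27 to 31.35%). The median ratio of marked windows was 0.983 (quartiles 0.840 to 1.16), and 165 were lower (0.608%) and 161 higher (0.593%). Windows with a promoter were lower in 2.26% of cases and windows without in 0.384%. Runs of marked windows made 3882 domains with a median length of 40 kb, 270.7 Mb in all. Of these 96.9% kept within 1.5-fold, 1 was lower (0.0258%) and 19 were higher (0.489%).

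The longest domains showed this. The longest, 790 kb at chr9:44780001-45570000 over the T cell receptor genes Cd3g, Cd3d and Cd3e, had 3.16-fold in myoblasts and 2.98-fold in myotubes, a ratio of 0.944. A domain of 720 kb on chromosome 2, with no protein-coding gene, had a ratio of 0.875, and one of 720 kb on chromosome 8 of 0.863. A domain of 630 kb around Ercc6 on chromosome 14 had a ratio of 0.942. The domain of 740 kb on chromosome X around Efnb1 was 1.32 times higher in myotubes.

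Chromosome X as a whole held more reads in the myotube library. Its share of H3K27me3 reads was 1.17 times that in myoblasts, beside 0.940 to 1.03 for the 19 autosomes. Marked windows on X had a median ratio of 1.22 and unmarked ones of 1.19, so the shift was not particular to marked windows. The X ratio was 1.31 for H3K4me1, 1.47 for H3K4me2, 1.09 for H3K4me3, 1.16 for H3K27ac and 0.762 for H3K36me3. Of the 161 higher windows 27 were on X (16.8%) and of the 165 lower ones 1 (0.606%), beside 6.22% of all marked windows. These counts have to be read beside that shift. Without X, 382 promoters were lower and 28 higher.

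Neighbouring called windows were joined into regions, a step chosen after the data were seen, as were most of the regions named, and 10 regions of at least 2 lower windows and 21 of at least 2 higher windows resulted. The most extended loss, 4 windows at chr2:180100001-180140000, holds no protein-coding gene but the genes of the muscle microRNAs Mir1a-1, at chr2:180123753-180123829, and Mir133a-2, at chr2:180133084-180133187. H3K27me3 there had 572 reads in myoblasts, 5.21-fold, and 141 in myotubes, 1.80-fold, a ratio of 0.347 (0.285 to 0.415). H3K27ac went from 30 to 1635 reads, H3K4me3 from 37 to 736 and H3K36me3 from 57 to 306. The low myotube level reached several kb past the edges of the region, and farther out the mark continued in both libraries.

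Of the 9 other regions of loss, that around Myh3 held a gene of the sarcomere list. There, in 40 kb of chromosome 11, H3K27me3 had 397 and 147 reads, a ratio of 0.520, and H3K36me3 went from 56 to 442 reads. Over Filip1, a filamin-binding protein, 30 kb had 325 and 91 reads, and the whole domain of 90 kb had 923 and 322, a ratio of 0.489 (0.429 to 0.555), the only domain called lower. The 40 kb over Fam78a and Ppapdc3, which codes for a muscle nuclear envelope protein, had 569 and 190 reads, a ratio of 0.469. Tbc1d8 and Gpc1, a surface proteoglycan, had ratios of 0.474 and 0.424. In these 5 regions and that of the microRNAs H3K27ac was higher in myotubes, by 3.83 to 22.0 times. The 4 others, at the developmental factors Hand2, Foxb1 and Tcfap2a and at Kcnab2, a potassium channel subunit, had H3K27ac ratios of 0.497 to 1.81, and Hand2 had 338 and 91 H3K27me3 reads. A single window was lower at Actn2, the Z-disc protein, with 85 and 19 reads and H3K27ac of 1 and 283.

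**Figure D4:**
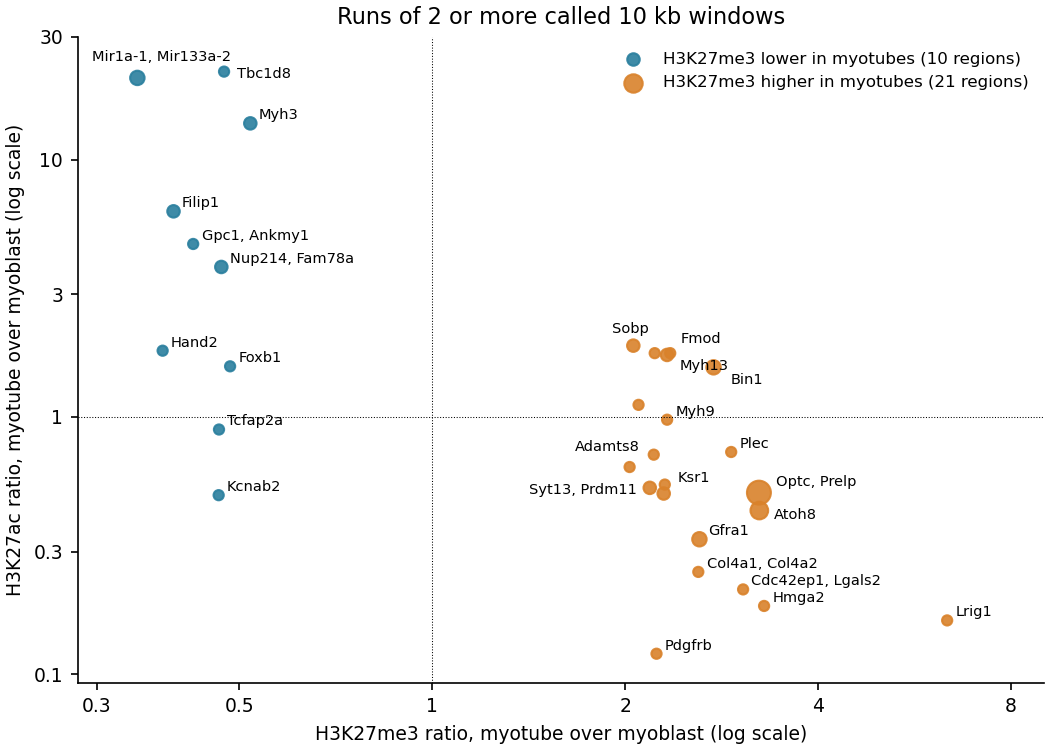
Ratio of myotubes over myoblasts for H3K27me3 (x axis) and H3K27ac (y axis), both on log scales, in the 31 regions of at least 2 called windows; the area of a point follows the number of called windows, and names are genes within 5 kb. H3K27ac was at least 2-fold higher in 6 of the 10 regions of loss and in none of the 21 regions of gain, where 15 had a ratio under 1.

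The longest of the 19 domains called higher was the 170 kb at chr1:135790001-135960000 over Optc, Prelp and Fmod, genes of small leucine-rich proteoglycans of the matrix that stand in a row. It had 1086 reads in myoblasts, 2.33-fold, and 1867 in myotubes, 5.60-fold, a ratio of 2.40 (2.23 to 2.60). Within it 11 windows over Optc and Prelp had 474 and 1097 reads, with H3K27ac at 3.93-fold and 2.00-fold. These windows stood at 1.57-fold in myoblasts and 5.09-fold in myotubes, and 2 windows over Fmod, already marked in myoblasts, went from 3.01-fold to 7.09-fold.

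Several other gains lay where myoblasts had H3K27ac, while others did not, since Sobp, Ksr1, Prdm11 and Fmod had 1.07-, 1.17-, 1.45- and 0.344-fold in myoblasts. Lrig1, an inhibitor of growth factor receptors, had 32 and 149 reads over 20 kb, a ratio of 6.36 (4.42 to 9.87), with H3K27ac from 198 to 81 reads. Hmga2, a chromatin protein of embryonic and dividing cells, had 61 and 145 reads, a ratio of 3.30, and its H3K36me3 had a ratio of 0.248. Atoh8 had 180 and 418 reads over 60 kb, Gfra1 149 and 279 over 40 kb, and Col4a1 with Col4a2, the collagens of basement membrane, 70 and 131 over 20 kb, a ratio of 2.60. Pdgfrb, the receptor for platelet-derived growth factor of mesenchymal cells, had 74 and 119 reads, a ratio of 2.24, with H3K27ac of 84 and 25.

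Not every gain went with a loss of activity. Bin1, which shapes the T-tubules of muscle, had 137 and 270 reads inside the gene, a ratio of 2.75, with H3K27ac at 9.50-fold and 14.8-fold and H3K36me3 at 19.6-fold and 28.4-fold. Inside Ttn, which codes for the giant sarcomere protein titin, 3 separate windows were higher, with 38 and 66, 37 and 55, and 26 and 60 reads, and H3K36me3 there was 11.9- to 21.1-fold in myotubes. At Myh13, beside the other myosin genes on chromosome 11, a domain of 60 kb had 290 and 419 reads, a ratio of 2.02, with little H3K36me3 (0.400-fold and 0.514-fold over its 3 called windows). On the same chromosome, the mark was thus lower over Myh3 and higher over Myh13.

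**Figure D5:**
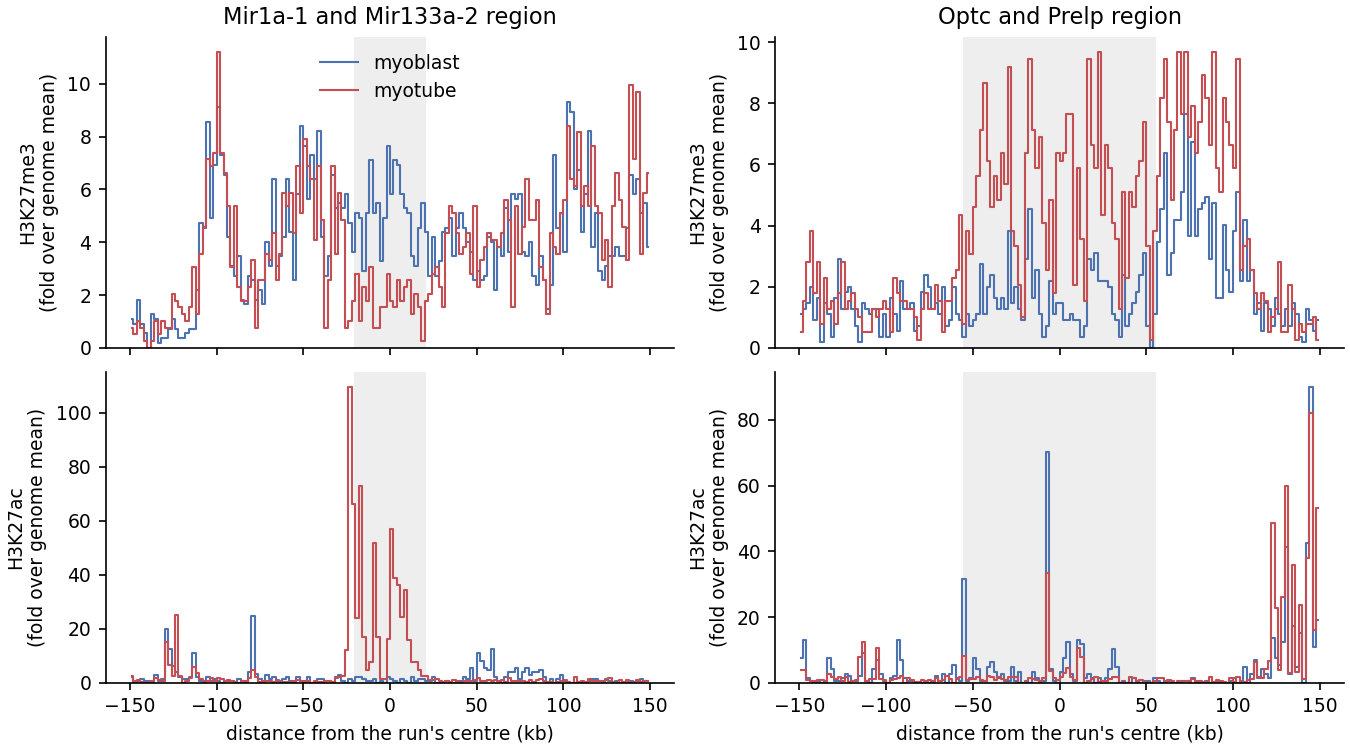
Level of H3K27me3 (top) and H3K27ac (bottom), as the fold over the genome mean in bins of 2 kb, against the distance from the centre of the called run, up to 150 kb either side; the grey band is the run. In the Mir1a-1 and Mir133a-2 region the myotube line of H3K27me3 is low within the band and H3K27ac appears there, and in the Optc and Prelp region the myotube line of H3K27me3 is above the myoblast line within the band and to its right, over Fmod.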

How the data were processed

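ChIP-seq of 6 histone marks was done in C2C12 myoblasts and myotubes, with 1 library for each mark and cell type. The authors' methods describe the myoblast libraries, which were aligned to the mouse genome mm9 with Mosaik and passed to MACS for peaks as unique alignments. For the myotube libraries the aligner is not given in the sources used here. Aligned reads and peak lists were deposited for both, and what was merged in each read file is not stated. Each peak carries a score in the deposited list, from 50 to 3233 across the 3 lists used here, which only served to count peaks and their reads. Reads were counted from the deposited alignments, since the authors gave no table of counts.

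Reads were extended to 150 bases and counted by their midpoint in windows of 10 kb, within 2 kb of gene starts and over gene bodies, on the 19 autosomes and X of NCBIM37 (mm9) with its GENCODE M1 annotation. The myoblast and myotube H3K27me3 libraries had 7011383 and 5010146 reads there. Intervals of 95% are exact conditional binomial intervals, for which reads are not all independent molecules, and a count of 0 allows up to 3 reads. No test across features was possible with 1 library per group. Domains are runs of at least 2 marked windows with gaps of at most 1. Counting used numpy 2.4.6 and pandas 2.3.3 under Python 3.11.15, intervals scipy 1.17.1 and plots matplotlib 3.10.9. The counting was tested on simulated data.

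The members and gene lists were chosen with earlier results of these data known. Named promoters are the 12 lowest and 12 highest ratios among called promoters with at least 30 reads in all, the 5 highest levels in each library, all called members of each of 19 lists (or the 4 lowest and 4 highest), and every myogenic factor, CDK inhibitor and Igf2. Named domains are the 6 most changed in each direction and the 6 longest. Single named genes beyond these, the joined regions, the classes by CpG and GC content, the counts near the start and 2 alternatives (autosomes only, CpG class) were chosen after the data were seen. Scaling, added reads, thresholds, read position, duplicates, depth, promoter and window width were varied. Results for some items that the rule selects are not reported here.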

Additional observations from a re-analysis of the deposited data

Results flagged for a closer look

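The myoblast peak list deposited with the H3K27me3 sample held H3K27ac reads of the myoblast library at 36.4 times the genome mean, a signal in a file that no comparison above uses. It covered 155 of the 3547 marked promoters (4.37%) and 22 of the 385 that were lower in myotubes. The list deposited with the H3K27ac myoblast sample was, by its reads, one of H3K27me3, with that mark at 6.76-fold and H3K27ac at 0.588-fold in myoblasts, so the 2 myoblast lists appear to be exchanged. It covered 1352 marked promoters (38.1%), 267 of the lower ones (69.4%) and 1 of the 38 higher ones. The call selects lower promoters for a high myoblast level and higher ones for a low level, so this contrast is set in part by the selection. The list deposited with the H3K27me3 myotube sample, of 13623 peaks, covered 557 marked promoters (15.7%), 28 of the lower ones (7.27%) and 6 of the higher ones (15.8%). The call selects on the myotube level as well, so these shares carry the same limit.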

How the results depend on the processing

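No paired analysis was possible because each cell type had 1 library, so no replicate could be left out either. The cause of the moves below was not tested. Lower promoters no longer outnumbered higher ones after division by the median of their CpG class, which brings the counts close by construction. Without that division, 279 CpG-rich marked promoters were lower and 8 higher, and 106 CpG-poor ones were lower and 30 higher. Higher domains no longer outnumbered lower ones when marking at 3-fold. Windows were nearly balanced, with 165 lower and 161 higher, and that order turned in several settings. These include division by the other 5 marks and windows of 5 kb and of 20 kb. Dividing each ratio by that of the other 5 marks over 1 Mb gave 73 higher promoters, a median of 0.874, 428 lower and 511 higher windows, and 28 lower and 34 higher domains. With 5 added reads 224 promoters were lower and 25 higher (median 0.884), and 98 windows were lower. Marking at 3-fold left 9 higher promoters (median 0.763), 86 lower and 25 higher windows, 3 lower and 2 higher domains, and 16.6% and 15.3% of myoblast and myotube reads in marked windows. A limit of 1.5-fold gave 752 lower and 72 higher promoters, 137 lower in the lists, 1475 lower and 1282 higher windows, and 51 lower and 69 higher domains. Windows of 5 kb gave 895 lower and 931 higher, 14 and 37 domains, and shares of 34.1% and 33.1%. Windows of 20 kb gave 30 lower and 35 higher, 3 higher domains, and 30.6% and 29.5%. Counting 1 read per position gave a myoblast share of 32.3%, and thinning the myoblast library gave 32.5% and 31.2% with 2 lower domains. With no gap joined 3 domains were lower. Promoters of 1 kb had a median of 0.800, and H3K27ac at the lower ones a median ratio of 0.679. Autosomes alone gave a median of 0.814 and shares of 30.9% and 29.5%. Division by the median of the CpG class gave 108 lower and 114 higher promoters, with a median of 1 that the division sets. The lists then held 28 lower, and H3K27ac at lower promoters had a median ratio of 1.07, across 1 from the 0.787 above. The other peak list moved the marked promoters in peaks from 155 to 1352 and the lower ones from 22 to 267. Of the 75 named promoters that were called, 46 were called after division by the median of the CpG class and 55 at 3-fold. With a genome mean of 7.84 myotube reads per promoter, intervals at weakly marked promoters are wide.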
